A study of Mus musculus with 12 samples.

Results

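Laminins are the trimeric glycoproteins that basement membranes are built on, and the integrin made of the Itga6 and Itgb4 subunits is the epithelial receptor that holds cells to them. This account covers 8 mouse genes chosen by symbol: the laminin chain genes Lamb3, Lama3, Lama5, Lamb1, Lamb2 and Lamc1 and the integrin subunit genes Itga6 and Itgb4. The platform annotation gave 12 of the 12422 probe sets to these symbols alone, and 0 probe sets that match several symbols included one of them. In 7 of the 8 genes a probe set passed the filter on low values, and Lamb2 was the exception. The filter took the mean over all 12 arrays. Lamb3 passed it through its tumor values (mean log2 10.59, against 6.33 in normal intestine). With the normal arrays alone it did not pass, so its place among the tested genes depends on the tumor values. The rule goes by symbol and uses no measured value, but the genes were listed with earlier results of these data known.

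The RNA came from tumors and normal intestine of male Min/+ mice aged 91 days, all of which carry the Min mutation in Apc and so form intestinal adenomas. There were 6 tumor and 6 normal arrays (Affymetrix MG_U74Av2), with 1 array for each combination of tissue, numbered diet (#1, #2 or #3) and Dnmt genotype (Dnmt+/- or Dnmt+/+). What each diet held, which Dnmt gene was altered and whether a tumor array pooled several tumors are not given in the labels. The normal tissue is Min/+ as well, so no array shows intestine with an intact pair of Apc alleles. A sample code joins each tumor array to the normal array of the same diet and genotype, which makes 6 code pairs; the labels do not call a code an animal, so the p-values reflect only array-to-array spread, which may be technical.

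The values are intensities in arbitrary units, and a level may be compared between arrays for 1 probe set but not between probe sets. On the 8 arrays of diets #2 and #3 the mean deposited intensity was 1000. On the 4 arrays of diet #1 it was 306 to 403, and 40.9% to 45.96% of their probe sets stood at a floor of 50, so diet #1 and this format cannot be told apart. Both normal arrays of diet #2 held exocrine pancreas RNA: the summed normalized intensity of 7 pancreas markers was 2501 to 5390 in tumors, 179153 and 194077 in those arrays and 2482 to 3311 in the remaining normal intestine. For this reason results are also given without each of these diets. Dnmt1, by its brighter probe set, read 56.0% to 78.8% of wild type in the 4 heterozygous arrays of diets #2 and #3.

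Laminin chains fall into alpha, beta and gamma types, and each trimer takes one of each. Lama3 and Lamb3 encode chains of the trimer that anchors epithelia through hemidesmosomes, junctions in which the Itga6 and Itgb4 integrin grips laminin outside the cell and plectin inside it. Lama5, Lamb1, Lamb2 and Lamc1 encode chains of the trimers found in most basement membranes, including those of the gut, the muscle layers and blood vessels.

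Because the study varied a DNA methyltransferase gene, CpG dinucleotides were counted in members' promoters as background. Whether these counts relate to the values that follow was not tested. Promoter windows of 4 of the 8 members (Lamb3, Lama5, Lamb1 and Lamb2) were read from RefSeq, build GRCm38.p6, as the 250 bases before an annotated start. No window was read for Lama3, Lamc1, Itga6 or Itgb4, so Lamb3 alone stands for the genes called higher in tumor below. The windows of 2 beta chain genes are shown because Lamb3 and Lamb1 differ most in this respect among the beta chains. Lamb3 lies on the plus strand, with its window at chr1:193301744-193301993, and Lamb1 on the plus strand, with its window at chr12:31265043-31265292. The Lamb3 gene is annotated from 193294353 to 193343878, so the Lamb3 window lies inside the gene. The bases before the outermost Lamb3 start were not read. The Lamb1 gene is annotated from 31265146, so the Lamb1 window runs past that point. Capitals mark each CpG.
Lamb3: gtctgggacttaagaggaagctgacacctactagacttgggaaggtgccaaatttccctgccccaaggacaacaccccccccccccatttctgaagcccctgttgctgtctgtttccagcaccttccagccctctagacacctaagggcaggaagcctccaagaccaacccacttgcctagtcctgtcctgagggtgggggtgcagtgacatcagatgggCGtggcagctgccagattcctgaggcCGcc
Lamb1: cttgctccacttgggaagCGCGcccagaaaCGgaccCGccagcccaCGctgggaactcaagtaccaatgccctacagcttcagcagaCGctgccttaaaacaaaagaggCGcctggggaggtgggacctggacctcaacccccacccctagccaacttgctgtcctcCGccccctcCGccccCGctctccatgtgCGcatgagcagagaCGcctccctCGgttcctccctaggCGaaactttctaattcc

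The Lamb3 window holds 2 CpGs and the Lamb1 window 14, where the median of 32841 promoter windows of this length is 6. A second annotated Lamb3 start, also inside the gene, has 3 CpGs in its window, Lamb2 has 3 and Lama5 has 19. The Lamb2 and Lama5 windows also reach into their genes. A search of both strands for the AP-1 motif TGANTCA, the TCF/LEF motif CTTTGAT, the TATA box TATAAA and the E-box CACGTG found 0 matches in these windows, where 6.75%, 3.21%, 12.4% and 6.02% of all windows hold each. The GC box GGGCGG occurs 4 times in the Lama5 window and 2 times in the Lamb1 window, and 32.7% of all windows hold it. None of these motifs overlap one another in the 4 genes. These are letters in a window and say nothing of binding or methylation, neither of which was measured.

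The first comparison asked how transcripts changed between normal intestine and tumor. Of the 7 genes tested, 4 were higher in tumor (Lamb3, Lama3, Itgb4 and Itga6) and 0 were lower, by limma at an adjusted p under 0.05. Over all 6400 features tested 18.2% were called higher and 16.9% lower (35.2% in either direction), and the median difference of the 7 members was 0.73 (log2), beside 0.0015 over all features. Lamb3 and Lama3 stood far above the other members, at 19.1-fold and 9.96-fold, whereas the chains of general basement membranes, Lama5, Lamb1 and Lamc1, differed by 1.66-fold or less and did not pass. The Lama5 fold takes in a diet #1 pair with both arrays at the file's floor. In diets #2 and #3 the ratio of its deposited means was 2.09, beside 1.48 for Itga6 and 2.37 for Itgb4. Without the diet #1 arrays 4 members were called, with Lama5 in the place of Itga6, and without the diet #2 arrays 3 were called (Lamb3, Lama3 and Itgb4).

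Lamb3, the beta chain of the hemidesmosomal laminin, read 2711 and 2099 in the tumor arrays of diet #2, heterozygous and wild type in turn, against 190 and 149 in the normal arrays. In diet #3 it read 1922 and 2606 in tumor, against 79.8 and 89.5 in normal intestine. The diet #1 tumors read 423 and 621, while both diet #1 normal arrays stood at the file's floor. The lowest tumor array of diets #2 and #3 (1922) thus lay far above the highest normal array (190). Their means were 2335 ± 383 in tumor and 127 ± 52.0 in normal intestine (SD, n = 4 arrays each). The fitted log2 difference was 4.26 ± 0.19 (SE, 6 arrays of each tissue; adjusted p = 9.87e-07, limma), positive in all 6 code pairs and the 7th largest increase among the 6400 features.

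The Lamb3 ratio could be measured in 4 pairs. Tumor over normal was 14.2 and 14.1 in diet #2 and 24.1 and 29.1 in diet #3, heterozygous and wild type in turn. In diet #1 the floor leaves lower bounds, at least 8.47-fold and at least 12.4-fold. A second Lamb3 probe set, whose suffix (_f_at) Affymetrix gave to probe sets that may share sequence with related transcripts, read 996, 897, 703 and 813 in the tumors of diets #2 and #3 against 45.2, 94.0, 32.9 and 42.3 in normal intestine. It separated the tissues in the same way, with means of 852 ± 125 and 53.6 ± 27.5 (SD, n = 4). All 4 of its diet #1 values were at the floor, and its fitted difference, which takes them in, was 2.32 ± 0.56 (SE, limma adjusted p = 0.011 among all probe sets past the filter). This probe set passed the filter only through its tumor values (mean log2 8.03, against 5.71 in normal intestine). With no filter its limma adjusted p was 0.025.

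Lama3, the alpha chain that pairs with Lamb3, had 1 probe set, with the suffix _s_at, also used where probes may match more than one transcript. It read 1690 and 1493 in the diet #2 tumors and 1101 and 1697 in the diet #3 tumors, heterozygous and wild type in turn, against 104, 55.0, 124 and 252 in the normal arrays of the same order. In diet #1 the tumors read 417 and 636, against 136 and the floor. Every tumor array was brighter than the normal array of its pair, by 3.07 to 27.1 times in the 5 pairs with both values measured. The log2 difference was 3.32 ± 0.46 (SE; limma adjusted p = 0.000684), and the gene ranked 20th among increases. The log2 SD was 0.23 in tumor and 1.13 in normal intestine (n = 6 arrays each), so the normal arrays held most of its spread. The call was lost within diet #1 (2.52, adjusted p = 0.14) and within heterozygous arrays (adjusted p = 0.063), where 4 and 6 arrays were fitted.

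**Figure D1:**
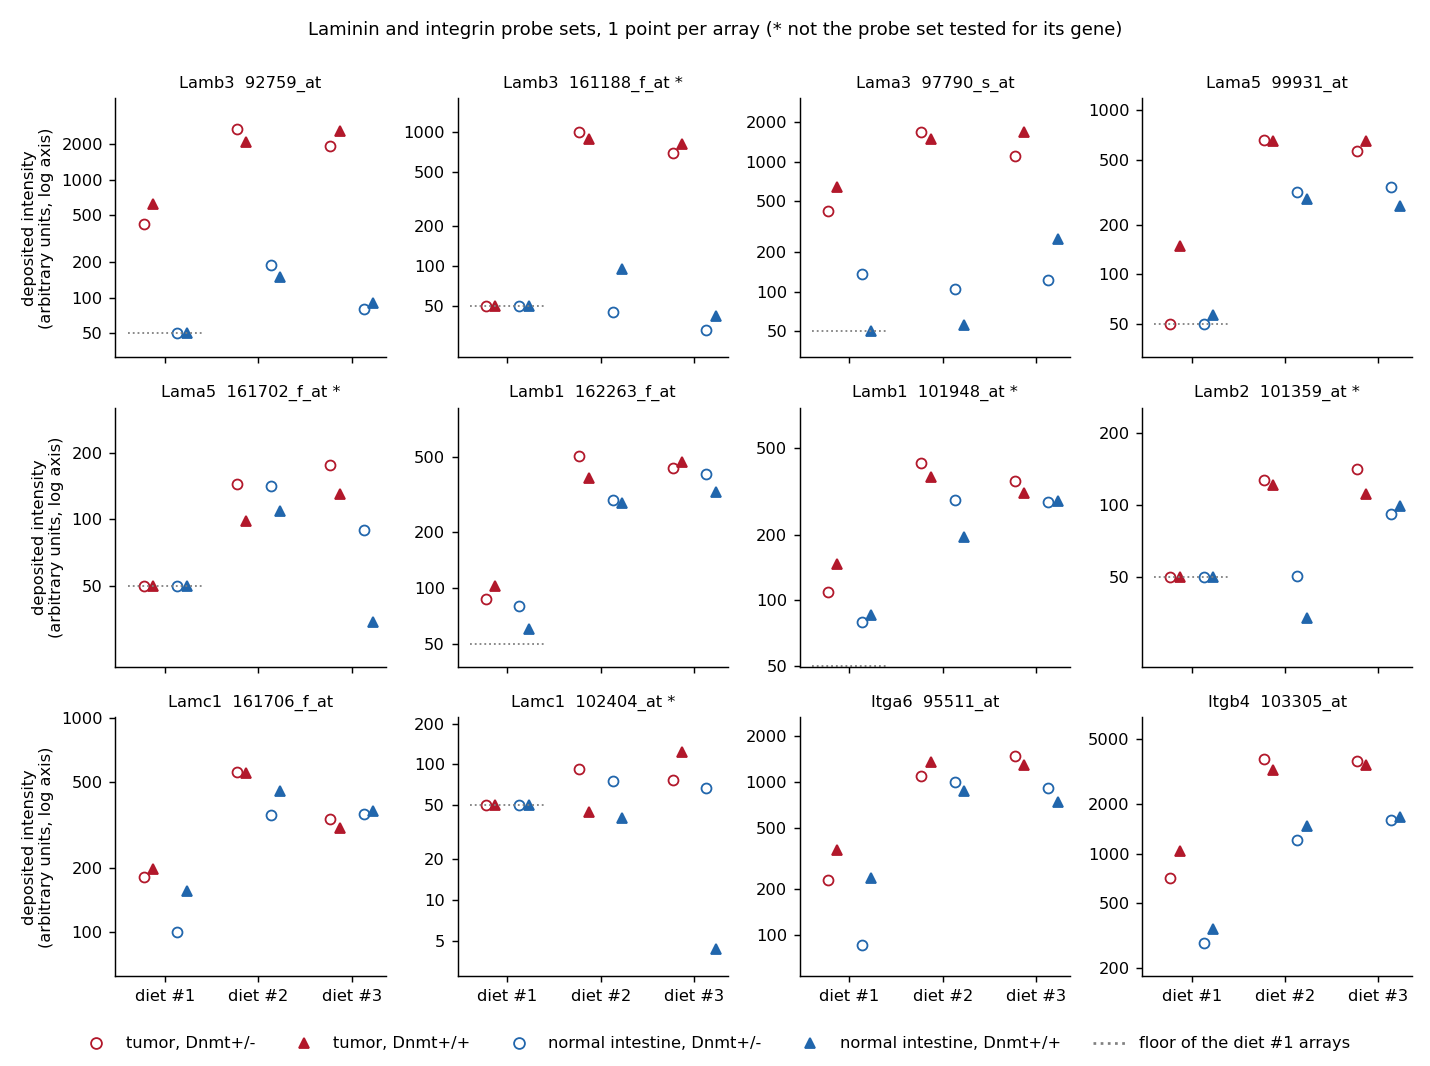
Deposited intensity (log axis, arbitrary units) of all 12 probe sets on each of the 12 arrays, tumor left of normal intestine within each diet, open circles for Dnmt+/- and triangles for Dnmt+/+. In diets #2 and #3 every Lamb3 and Lama3 tumor value lies above every normal value, while Lamc1 and the Lamb1 probe set tested overlap; the dotted line is the floor of 50 in the diet #1 files.

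Itgb4, the integrin subunit that is particular to hemidesmosomes through its long cytoplasmic tail, differed by less than Lamb3 and Lama3 but evenly. It read 3776, 3226, 3677 and 3502 in the tumors of diets #2 and #3, against 1213, 1476, 1613 and 1679 in normal intestine. In diet #1 the values were 706 and 1042 in tumor against 284 and 347 in normal intestine, well clear of the floor. The 6 pair ratios ran from 2.09 to 3.11, and the log2 difference was 1.30 ± 0.10 (SE; 2.46-fold, limma adjusted p = 2.84e-05). Within the 4 arrays of diet #1 alone it was 1.43 and did not pass (adjusted p = 0.095). Means in diets #2 and #3 were 3545 ± 241 in tumor and 1496 ± 206 in normal intestine (SD, n = 4).

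Itga6, the alpha subunit that Itgb4 depends on for a partner and that can also pair with Itgb1, rose 1.49-fold (log2 difference 0.58 ± 0.19, SE; limma adjusted p = 0.043). Deposited values were 1102, 1365, 1475 and 1290 in the tumors of diets #2 and #3 and 1002, 872, 917 and 744 in normal intestine, and 227 and 359 in diet #1 tumors against 85.7 and 234. Tumor was brighter in all 6 pairs as deposited, by 1.10 to 2.65 times, but in 5 of 6 after quantile normalization, where the heterozygous pair of diet #2 turned to -0.076. The call was close to the threshold: it was kept in 4 of 12 fits that left out an array (0.40 to 0.68), and lost with median scaling (0.48, adjusted p = 0.069), without diet #1 (0.40, adjusted p = 0.093) and without diet #2 (0.79, adjusted p = 0.061).

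None of the laminin chains of general basement membranes passed the test over all 12 arrays. Lama5, the main alpha chain under intestinal epithelium in the adult mouse, read 656, 654, 564 and 653 in the tumors of diets #2 and #3, against 317, 290, 341 and 260 in normal intestine. Those groups did not overlap, and their means were 632 ± 45.4 and 302 ± 34.7 (SD, n = 4). In diet #1 the wild type pair read 149 in tumor and 56.2 in normal intestine, while both heterozygous arrays were at the floor. Over all 12 arrays the difference was 0.73 ± 0.35 (SE) and did not pass (limma adjusted p = 0.14). It passed without the diet #1 arrays (0.82, adjusted p = 0.0036), without the heterozygous diet #1 tumor alone (1.04, adjusted p = 0.017), with median scaling (0.72, adjusted p = 0.0090), on the values as deposited (0.95, adjusted p = 0.0062), with the higher floor (0.74, adjusted p = 0.016) and with codes as a block (adjusted p = 0.015).

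Lamb1, the beta chain most common in basement membranes, was measured by 2 probe sets. The one tested read 386 to 510 in the tumors of diets #2 and #3 and 285 to 409 in normal intestine, and the ranges overlapped. Its difference was 0.23 ± 0.11 (SE; limma adjusted p = 0.14), with 6 of 6 deposited pair ratios above 1 (1.07 to 1.73). After quantile normalization 5 of 6 pairs were higher in tumor, and the heterozygous pair of diet #3 was at -0.11. The other read 312 to 424 in tumor and 195 to 289 in normal intestine, with no overlap, a difference of 0.31 ± 0.11 and an adjusted p of 0.058 among all probe sets past the filter (limma). On the values as deposited, where the median of all features shifted by 0.13, Lamb1 passed (0.46, adjusted p = 0.018).

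Lamc1, the gamma chain shared by most laminins, showed no common direction. Tumors read 557 and 551 in diet #2 and 336 and 306 in diet #3, against 353, 454, 355 and 366 in the normal arrays of the same order. In diet #1 the tumors read 181 and 197, which was 1.81 and 1.27 times their normal partners. The difference was 0.094 ± 0.15 (SE; limma adjusted p = 0.67), with deposited ratios above 1 in 4 of 6 pairs, all in diets #1 and #2, and below 1 in both pairs of diet #3. It turned negative without the diet #1 arrays (-0.11, adjusted p = 0.61).

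The dimmer probe sets gave little information. Lamb2, a beta chain of muscle and vessel laminins, read 111 to 142 in tumor and 33.7 to 99.4 in normal intestine of diets #2 and #3 and stood at the floor in all 4 diet #1 arrays. With no filter its difference was 0.34 ± 0.15 (limma adjusted p = 0.18). The second probe sets of Lama5 (97.8 to 177 in tumor, 34.6 to 141 in normal intestine) and Lamc1 (44.3 to 123.4 in tumor, 4.39 to 75.5 in normal intestine) overlapped between tissues and did not pass with no filter (limma adjusted p = 0.61 and 0.67).

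On the deposited scale all 4 tumor arrays of diets #2 and #3 lay above all 4 normal arrays for 5 of the 7 tested members (Lamb3, Lama3, Lama5, Itga6 and Itgb4), which was so for 22.5% of all features. After normalization the difference was positive in all 6 code pairs for 3 of the 7 (Lamb3, Lama3 and Itgb4), against 17.4% of all features.

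**Figure D2:**
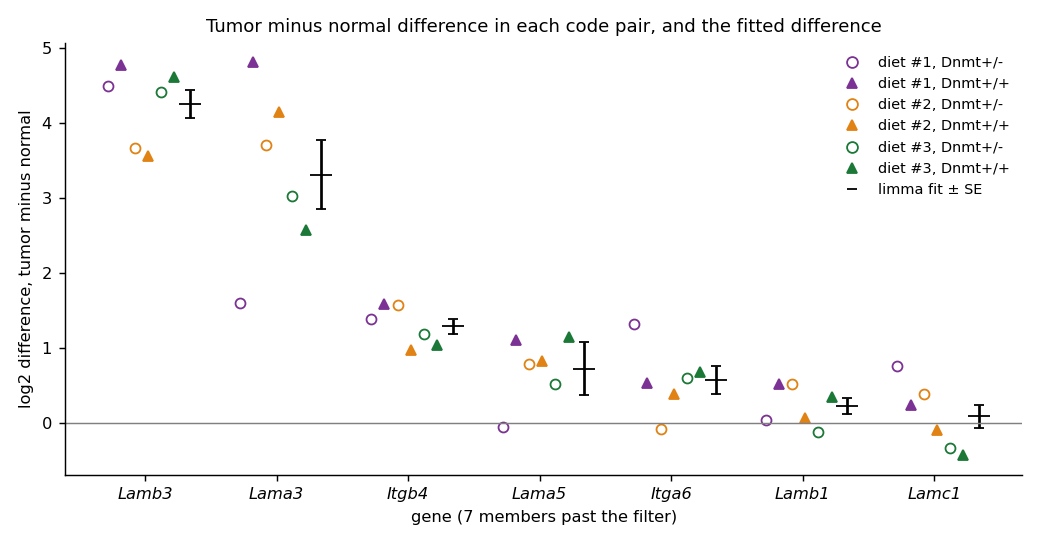
Log2 difference, tumor minus normal intestine, in each of the 6 code pairs (coloured by diet, open circles for Dnmt+/-) with the limma estimate and its SE as a black bar, for the 7 members past the filter. Lamb3 runs from 3.57 to 4.78 and Itgb4 from 0.98 to 1.59, while Lamc1 lies on both sides of 0. The Lama5 pair at -0.047 had both arrays at the file's floor. The Lamb3 pairs of diet #1, at 4.49 and 4.78, had the normal array at that floor.

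Lamb3 and Lama3 values moved together over the arrays, mostly with tissue. After each diet's mean was removed, their log2 values correlated at r = 0.91 over 12 arrays, and Lamb3 with Itgb4 at 0.98; both are descriptions that rest mostly on the tissue difference. With tissue means removed too, r was 0.51 for Lamb3 with Lama3 and 0.0085 for Lamb3 with Itgb4. Over all pairs of tested members it ran from -0.88 (Lama3 with Itga6) to 0.62 (Lama5 with Itga6). That centring leaves only the heterozygous against wild type difference within each tissue and diet. Among 5641 other named genes, those most like Lamb3 over the 12 diet-centred arrays were Cfi (complement factor I, r = 0.997), the keratin gene Krt18 (0.996) and Gch1 (0.995), the first enzyme of tetrahydrobiopterin synthesis. Most like Lama3 were Wdr92 (0.979), the desmoplakin gene Dsp (0.977) and the annexin gene Anxa8 (0.971). For Itgb4 they were the mast cell protease gene Mcpt2 (0.994), Krt7 (0.990) and the collagen gene Col4a1 (0.989), and for Itga6 they were Tspan12 (0.956), Ilf2 (0.951) and Prmt1 (0.949). An r with tissue means removed was not computed for these other genes.

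The partners of these genes were read from lists chosen in the same way. Each count is to be read beside the 18.2% of all features called higher and the 16.9% called lower. In the hemidesmosome list 2 of 5 genes on the array passed the filter and both were called higher: Plec, the plectin that ties Itgb4 to keratin, at 0.88 ± 0.30 (SE; limma adjusted p = 0.046), and Cd151, a tetraspanin that binds laminin receptors, at 0.38 ± 0.086 (adjusted p = 0.0084). Neither call held without the diet #2 arrays (Plec 0.42, adjusted p = 0.27; Cd151, by another probe set that was then the brightest, 0.49, adjusted p = 0.11) or with median scaling (0.69, adjusted p = 0.087; 0.14, adjusted p = 0.25). With the codes as a block the Plec call was lost (adjusted p = 0.072). Plec was kept in 4 of 12 fits that left out an array, and its difference was 1.77 within diet #2, where normal intestine held pancreas RNA, and -0.020 within diet #3. Of the other Cd151 probe sets one was higher (0.45, adjusted p = 0.044) and one lower (-0.68, adjusted p = 0.023). Col17a1, Krt5 and Krt14, other hemidesmosome or basal keratin genes, were below the filter.

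Of 11 other integrin subunits tested, 3 were called higher (27.3%) and 0 lower (median -0.027). Itgav, which pairs with several beta subunits to bind matrix, rose by 0.87 ± 0.093 (SE; limma adjusted p = 0.00015) in all 6 pairs, and was 0.63 to 0.96 and still called under both other scalings and without diet #1 or #2; a second probe set at 0.73 did not pass (adjusted p = 0.14). Itga2, a collagen and laminin receptor subunit, differed by 0.66 and Itgb1, the partner of most alpha subunits, by 0.31. The Itgb1 call was lost with median scaling, where its sign turned (-0.027), and as deposited (0.20), and the Itga2 call in 5 of 11 fits that left out an array and with the codes as a block (adjusted p = 0.060). The laminin-binding subunit genes Itga3 and Itga7 gave -0.027 and 0.12 and were not called. Without the diet #1 arrays 1 of these subunits was called, and 1 without diet #2.

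Among 9 other basement membrane genes tested, 6 were called higher (66.7%) and 1 lower (median 0.52). Col4a1, a chain of the collagen IV network, rose by 0.77 ± 0.079 (SE; limma adjusted p = 0.00012). Sparc, which binds collagen IV, rose by 0.99 ± 0.12 (adjusted p = 0.00024), the matricellular Tinagl1 by 0.79 ± 0.18, and the perlecan gene Hspg2 by 0.72 ± 0.24 (adjusted p = 0.044). Fbln1, a fibulin of stromal matrix, fell by 0.67 on the log2 scale (adjusted p = 0.0057) and by 0.74 to 0.93 in its other 2 probe sets. With median scaling 4 were called higher, without diet #1 3 and without diet #2 4. Hspg2 was kept in 4 of 12 fits that left out an array.

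No other laminin chain was called: Lama1, Lama2 and Lama4, chains of embryonic, muscle and vessel laminins, differed by -0.090, 0.021 and 0.36. Of 6 further laminin receptors and binders 1 was called (16.7%, close to the share of all features), Lgals3, the galectin that binds laminin sugars, at 0.96 ± 0.14 (SE; limma adjusted p = 0.00092); Dag1 (dystroglycan) gave 0.064 and Rpsa 0.38. Of 5 enzymes that process laminin or activate such enzymes, 3 were higher: Plat (2.82 ± 0.38), Mmp7 (2.24 ± 0.24) and Mmp14 (0.92 ± 0.10), the membrane protease. Bmp1, which trims laminin chains, was called lower (-0.46, adjusted p = 0.042) and lost the call in 9 of 12 fits that left out an array. Of 6 integrin signalling genes 1, likewise 16.7%, was higher, the vinculin gene Vcl (0.56 ± 0.11, adjusted p = 0.0040), and 0.41 without diet #2 (adjusted p = 0.056).

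**Figure D3:**
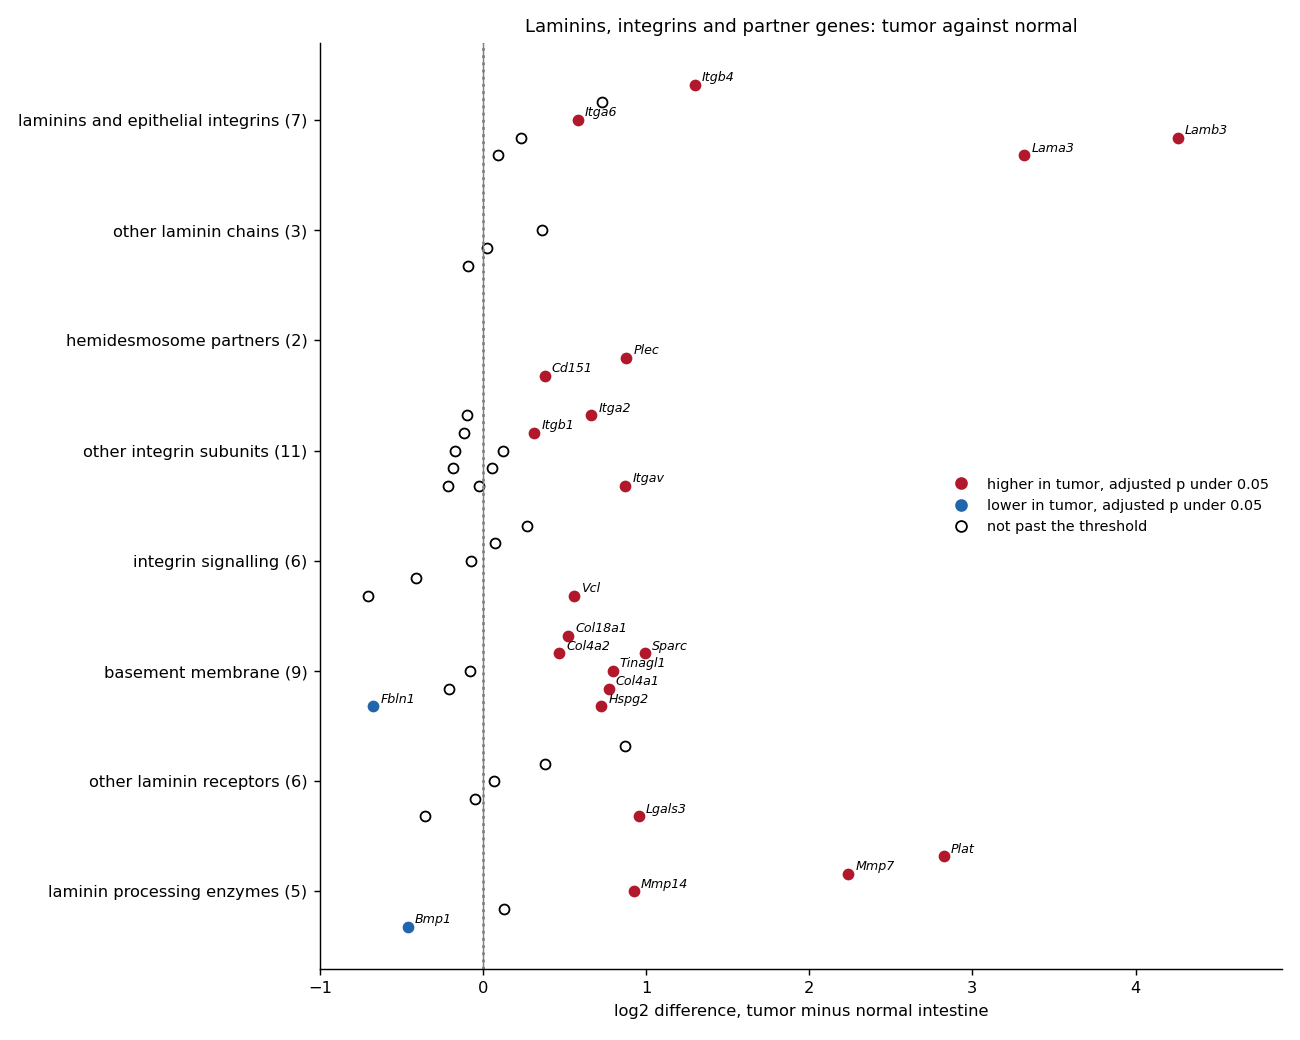
Log2 difference, tumor minus normal intestine, for each tested gene of the laminin and integrin group and of 7 partner lists (number tested in brackets), with genes past the threshold filled and named. Lamb3 (4.26) and Lama3 (3.32) lie to the right of all other genes shown, the next being Plat (2.82) and Mmp7 (2.24).

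Levels of cell type markers also differed between tumor and normal intestine. In bulk samples more cells of a type and more RNA per cell cannot be told apart. Calls cover the markers past the filter, but each sum takes in all markers of its list on the array. Those were 7 for smooth muscle, 8 for endothelium, 7 for leukocytes and 7 for squamous or basal cells. Of 10 epithelial markers, 5 were called higher in tumor, 0 lower and none were at a floor throughout, and their summed normalized intensity was 111500 to 118859 in tumor against 64844 to 89118 in normal intestine. The normal arrays of diet #2, which held pancreas RNA, read 64844 and 72630, and the others 83123 to 89118. Krt18, Krt19 and Krt8 led them (2.50, 1.15 and 0.83, log2). The other 2, Cldn3 and Cldn7, lost the call without diet #2 (adjusted p = 0.16 and 0.26) and with median scaling, where Cldn7 turned to -0.083, and Cldn7 in 8 of 12 fits that left out an array. Cdh1, Vil1 and Epcam differed by 0.061, -0.12 and 0.23 and were not called. Of 8 fibroblast markers 4 were higher and 0 lower, 1 of them (Pdgfra) lost with the codes as a block (adjusted p = 0.071) and without diet #1 or #2 (0.12 and 0.10), with sums of 9734 to 12030 against 5939 to 7619. Smooth muscle markers had 0 of 6 called (sums 8288 to 16331 against 7692 to 18872) and endothelial markers 1 higher and 1 lower of 7 (1419 to 1842 against 1154 to 1763). Of 3 squamous or basal markers tested 1 was higher, Krt6a (1.397), with sums of 1001 to 1603 against 777 to 1085, and Krt5 and Krt14 were below the filter. All 4 adipocyte markers were lower (-1.95 to -0.91), with sums of 292 to 533 against 595 to 1531, although Adipoq did not pass without diet #1 (adjusted p = 0.090). Of 5 leukocyte markers 0 were higher and 2 lower, Csf1r (-0.53) and Cd68 (-0.42), with sums of 1519 to 3733 against 2313 to 3516. Neither was called without diet #1 (adjusted p = 0.12 and 0.22), and Cd68 was lost in 10 of 12 fits that left out an array and with the codes as a block (adjusted p = 0.063). The part of these shifts in the laminin and integrin differences was not tested.

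The genotype comparison asked whether Dnmt+/- tissue differed from Dnmt+/+. None of the 7 members was called (limma; 0 of 7 also at an unadjusted p under 0.05, and 0 with codes as a random block), where 0.0156% of all features were called and 4.56% had such an unadjusted p. The lowest adjusted p was 0.92. Lamb3 differed by 0.00034 ± 0.19 and Itgb4 by -0.016 ± 0.10 (log2, heterozygous minus wild type, SE, n = 6 arrays each), and Lama3 by 0.32 ± 0.46. The widest gap, -0.64 ± 0.35 for Lama5, was 0.042 without the diet #1 arrays, where the heterozygous tumor stood at the floor and the wild type tumor read 149.

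The tumor difference was also set side by side in the genotypes. For Lamb3 it averaged 4.196 ± 0.46 in heterozygous pairs and 4.32 ± 0.65 in wild type pairs (log2, SD, n = 3 pairs each), and for Itgb4 1.38 ± 0.19 and 1.21 ± 0.33. Lama3 had 2.78 ± 1.08 and 3.85 ± 1.15. The tissue by genotype term was called for 0 of 7 members (limma adjusted p = 1.00 for each; 0 of 7 at an unadjusted p under 0.05), as for 0% of all features, of which 2.8% had such an unadjusted p.

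Between diets, #3 against #2 is the pair that shares a file format. The normal arrays of diet #2 held exocrine pancreas RNA, however. Diet and that content cannot be told apart in this pair or in the tissue by diet term, for members and for all features. No member was called (0 of 7, and 0 at an unadjusted p under 0.05), against 4.28% of all features called and 21.7% with such an unadjusted p. Lamb3 read 79.8 and 89.5 in the normal arrays of diet #3 against 190 and 149 in those of diet #2, while the tumor arrays overlapped (1922 and 2606 against 2711 and 2099); the fitted difference was -0.49 ± 0.23 (limma adjusted p = 0.26). Lamc1 differed by -0.40 ± 0.19 (adjusted p = 0.26). Against diet #1, 5 of 7 members were called higher in diet #2 and 5 in diet #3, where 49.2% and 51.1% of all features were called in either direction (28.4% and 30.4% higher), and here diet and file format cannot be told apart. The tissue by diet term was called for 0 of 7 members and 1.3% of all features; 2 members had an unadjusted p under 0.05, Lamb3 (0.023, limma adjusted p = 0.29) and Lamc1 (0.031, adjusted p = 0.33), against 12.9% of all features.

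**Figure D4:**
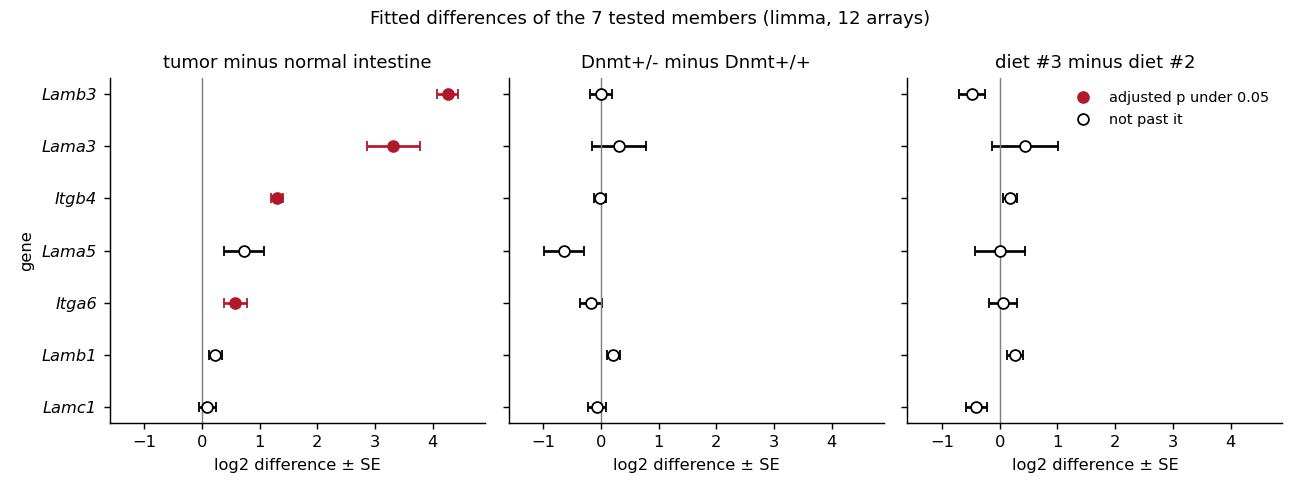
Limma log2 differences with SE for the 7 tested members in tumor against normal intestine, Dnmt+/- against Dnmt+/+ and diet #3 against diet #2, on a common axis. Filled points passed an adjusted p under 0.05: 4 of 7 for tissue and 0 of 7 in the other panels.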

How the data were processed

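The authors deposited 1 linear intensity per probe set for 12488 probe sets on 12 arrays, per the labels hybridised by the manufacturer's protocol; the software behind them is not named in any source used here. From these, 66 control probe sets were removed and the rest quantile-normalized, raised to the 20th percentile (44.8) and put on a log2 scale. The dimmest 40% of probe sets by mean log2 value were dropped, and each gene kept its brightest probe set (6400 features, 5648 named by the platform annotation). Limma 3.58.1 in R 4.3.3 was fitted on all 12 arrays with tissue, diet and genotype as terms (an interaction was added for its own test), with Benjamini-Hochberg adjustment over all features and a threshold of 0.05. Only the limma fit was tested on simulated data, with independent normal noise around fitted values. Normalization, the floors, the filter and the code pairs were not part of that test. The number of arrays limits the precision.

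Named were all 8 members, up to 5 called genes of each list with the largest difference, and the 3 genes most like each called member; list genes printed without a call were chosen after their values were seen. Members and lists were chosen with earlier results of these data known.

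Arrays of a code deviated together from the tissue means (r = 0.46 to 0.68). Codes also share diet and genotype; with these removed r was -0.57 to -0.38, a value that such centring itself lowers, so pairing beyond diet and genotype was not tested. Fits with the codes as a block are given where they change a call. Arrays of 1 tissue correlated at 0.78 to 0.98.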

Additional observations from a re-analysis of the deposited data

Results flagged for a closer look

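Lama5 in tumor had 1 array far from the other 5: the heterozygous diet #1 tumor, at the file's floor, stood at 5.565 (log2, normalized). About 1 group in 20 would be picked out by chance if all its arrays were alike. The diet #1 arrays have another file format, so that rate may not hold here. The Lama5 difference without this array was 1.04, as given above.

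Lamc1 was higher in both tumor arrays of diet #1 and lower in both of diet #3 than in their normal partners. The mean log2 difference in diet #1 exceeded that in diet #3 by 0.885. The tissue by diet term for this gene had an adjusted p of 0.33 (limma), so the difference between diets did not pass.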

How the results depend on the processing

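Lamb3 passed in all 28 alternatives (3.36 to 4.61), Itgb4 in 27 (1.09 to 1.43) and Lama3 in 26 (2.52 to 4.15), with 1 direction throughout. Itga6 passed in 11 of 28, Lama5 in 8 of 27, Lamb1 in 1 of 27 and Lamc1 in 0 of 28. With the codes as a fixed replicate block 5 members were called, Lama5 being added and no other member changing. With an array left out, 3 to 4 members and 1889 to 2180 features were called. Members called higher numbered 1 within diet #1 (4 arrays), 2 in heterozygous arrays and 6 on the values as deposited. Features called for tissue were 2251, against 1365 without diet #2, 42, 1235 and 580 within diets #1, #2 and #3, and 179 and 340 within heterozygous and wild type arrays, where fewer arrays were fitted. Diet #3 against #2 gave 274 features, and 21 to 225 with an array left out. Higher and lower calls split 1167 to 1084, 847 to 1551 with median scaling (median shift -0.099) and 1358 to 729 as deposited (0.13). With the lowest 60% left out 3 members were called in diet #2 and 3 in diet #3 against diet #1, as fewer were tested. Among called genes the signs that reversed were Itgb1 (-0.027) and Cldn7 (-0.083) with median scaling and Plec (-0.020) within diet #3; the cause was not tested. Lamc1, not called, was negative in 4 of 28 alternatives (-0.36 at the lowest). Probe sets near a floor limit Lamb2, Lama5 in diet #1 and the folds of Lamb3 and Lama3.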
